A study of Homo sapiens with 12 samples.

Results

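SAMD9 and SAMD9L are neighbouring paralogues on chromosome 7, and they were followed here through 12 RNA-seq libraries of 2 leukemia cell lines in which the deubiquitinase USP15 was knocked down. The pair makes up 2 of the 26226 genes listed for KBM7 and 2 of the 28328 listed for K562. It was chosen by the difference in RNA level between siUSP15 and siCtrl, as SAMD9 was higher after the knockdown in both lines, so the changes of both genes between siUSP15 and siCtrl are given below as a description, with no p-value. Levels between the lines, between the K562 library sets and within the pair were not used for that choice, and they were tested. The tests between the K562 sets include the siUSP15 libraries, however, and are not free of that choice.

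Both genes are induced by interferon and encode large cytoplasmic proteins with an N-terminal SAM domain. They are known as restriction factors for poxviruses that stop protein synthesis in infected cells, and as suppressors of cell growth. Inherited activating changes in either gene cause bone marrow failure syndromes in which blood cells lose the chromosome 7 copy that carries the changed allele, and loss of this region is common in myeloid neoplasia.

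KBM7, a near-haploid line, and K562, a line with erythroid features, both come from blast crisis of chronic myelogenous leukemia. Each received either the siUSP15 SMARTpool, which targets USP15, or siCtrl, a pool without a target, and RNA was taken after 72 h. KBM7 has 2 libraries of each kind and K562 has 4, of which siUSP15 replicate 3 carries a column name that differs in form from those of the other siUSP15 libraries and was grouped by its title. Knockdown thus rests on 1 pool against 1 control pool, and as no source says that the libraries came from separate cultures, p-values measure the spread between these libraries only. The K562 libraries were split into 2 sets, replicates 1 and 2 and replicates 3 and 4, and the set was a term of the K562 fit. No source names these sets, which were inferred from libraries that deviated together over all genes.

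The 4 KBM7 libraries held 23450607 to 29441118 counts each, and the 8 of K562 held 23020401 to 43566543. Levels are given as CPM, the reads of a gene relative to the total of its library, scaled by TMM over all 12 libraries. USP15 stood at 199 and 202 CPM with siCtrl and at 106 and 108 CPM with siUSP15 in KBM7, a log2 fold change of -0.91 (SE 0.0439, adjusted p = 1.58e-07 by edgeR's quasi-likelihood test with Benjamini-Hochberg adjustment). In K562 USP15 ranged from 276 to 357 CPM with siCtrl and from 119 to 201 CPM with siUSP15, a log2 fold change of -0.96 (SE 0.0649, adjusted p = 4.67e-05 by the same test). Of 15 erythroid markers all 15 averaged at least 1 CPM in K562, where their sum was 5178 to 6661 CPM over the 8 libraries, and 9 of 15 did in KBM7. The 15 myeloid markers summed to 463 to 482 CPM in KBM7 and to 38.9 to 84.7 CPM in K562.

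SAMD9 (ENSG00000205413) lies on the minus strand at chr7:93099513-93118023 in hg38, and SAMD9L (ENSG00000177409) on the same strand at chr7:93130056-93148385. In each gene a single exon holds the whole coding sequence, of 4767 bases in SAMD9 and 4752 in SAMD9L, and 72.2% of aligned coding positions were identical. The transcripts shared few exact words, in that 11 of the 6854 words of 25 bases in the SAMD9 transcript also occurred in SAMD9L, and 0 words of 50 bases did.

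The sequence before each start site is shown because the pair is interferon-inducible and interferon regulatory factors are known to bind a GAAA repeat. RefSeq promoters of GRCh38.p14 were matched for 2 of 2 genes, and both stretches are read 5′ to 3′ on the minus strand, SAMD9 at chr7:93118024-93118229 (206 bases, with bases of an annotated exon left out) and SAMD9L at chr7:93148386-93148635 (250 bases). Capitals mark the GAAANNGAAA match in SAMD9 and the shorter AAANNGAAA match in SAMD9L, and both motifs were chosen after the sequences had been seen.
SAMD9: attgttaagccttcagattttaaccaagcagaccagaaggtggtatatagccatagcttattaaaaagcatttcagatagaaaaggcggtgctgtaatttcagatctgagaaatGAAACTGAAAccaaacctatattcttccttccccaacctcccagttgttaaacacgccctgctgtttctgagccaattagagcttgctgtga
SAMD9L: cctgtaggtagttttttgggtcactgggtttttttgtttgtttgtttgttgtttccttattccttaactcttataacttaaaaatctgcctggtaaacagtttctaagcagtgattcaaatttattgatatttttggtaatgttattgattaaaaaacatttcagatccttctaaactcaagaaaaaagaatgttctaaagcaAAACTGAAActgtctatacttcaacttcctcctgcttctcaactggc
The capitals lie 136 to 127 bases before the RefSeq start in SAMD9 and 47 to 39 bases before it in SAMD9L. Searched on both strands over 250 bases, GAAANNGAAA occurred in 3.02% of 35116 promoters and AAANNGAAA, which every GAAANNGAAA contains, in 9.2%. Of 46 matched promoters of the interferon-stimulated genes listed here, 63% and 69.6% held them. The longest stretches that both windows shared had 10 bases and were 3 in number: AAACTGAAAC, which overlaps the capitals, ATTTCAGATC and CATTTCAGAT, found in 0.125%, 0.0427% and 0.0683% of all promoters. A match describes letters only, and no binding was measured.

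SAMD9 was the more abundant gene of the pair in all 12 libraries, per kb of exon as well as per library. In KBM7 it was counted at 191.8 and 174.98 CPM with siCtrl and at 286.7 and 280.0 CPM with siUSP15. Both siUSP15 libraries lay above both siCtrl libraries. The log2 fold change was 0.63 (SE 0.0479, n = 2 per group), an increase of 54.4%, and 5.25% of the 14980 genes tested in KBM7 had a larger one. For background, 13.2% of those genes were called higher and 32.9% had every siUSP15 library above every siCtrl library.

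In K562 SAMD9 was much lower, and its relative change was of similar size. The siCtrl libraries stood at 14.95, 16.14, 16.23 and 14.26 CPM, and the siUSP15 libraries at 33.4, 29.7, 22.5 and 23.2 CPM, in the order of their replicate numbers. All 4 siUSP15 libraries lay above all 4 siCtrl libraries, as was the case for 3.86% of 13731 genes. The log2 fold change was 0.80 (SE 0.0880), or 1.75-fold, and only 55 genes (0.401%) had a larger one. In K562, 6.88% of genes were called higher.

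SAMD9L, the second member, was counted in KBM7 at 27.3 and 23.7 CPM with siCtrl and at 89.9 and 78.6 CPM with siUSP15. Both siUSP15 libraries lay above both siCtrl libraries, as was the case for 32.9% of the genes tested in KBM7. The SD was 2.61 CPM with siCtrl and 7.96 CPM with siUSP15 (n = 2 each). Its log2 fold change of 1.72 (SE 0.0778), or 3.30-fold, was exceeded by 48 genes, 0.32% of those tested in KBM7. In KBM7 the summed erythroid markers moved at the same time, from 1028 and 1040 CPM with siCtrl as the lowest and highest to 786 and 842 CPM with siUSP15, with 0 higher and 8 lower of 10 tested, where 15.8% of all genes in KBM7 were called lower. The myeloid sum was 463 to 471 CPM with siCtrl and 471 to 482 CPM with siUSP15, with 8 higher and 2 lower of 13 (61.5% and 15.4%, against 13.2% and 15.8% of all genes). In K562, 3 of 15 erythroid markers were higher and 1 lower (20% and 6.67%). Of 5 myeloid markers tested there, 0 were higher and 2 lower (0% and 40%), against 6.88% and 8.9% of all genes. The part of either marker list in the changes of SAMD9 and SAMD9L was not tested. In such bulk RNA a change in the number of expressing cells and a change in RNA per cell cannot be told apart.

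In K562 SAMD9L was near the limit of detection. With siCtrl it gave 14, 20, 8 and 4 reads (0.608, 0.856, 0.325 and 0.159 CPM), and with siUSP15 it gave 23, 26, 15 and 11 reads (0.973, 0.626, 0.564 and 0.477 CPM). The 2 groups overlapped. The log2 fold change was 0.40 (SE 0.310), and its distance from 0 was little more than its standard error.

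**Figure D1:**
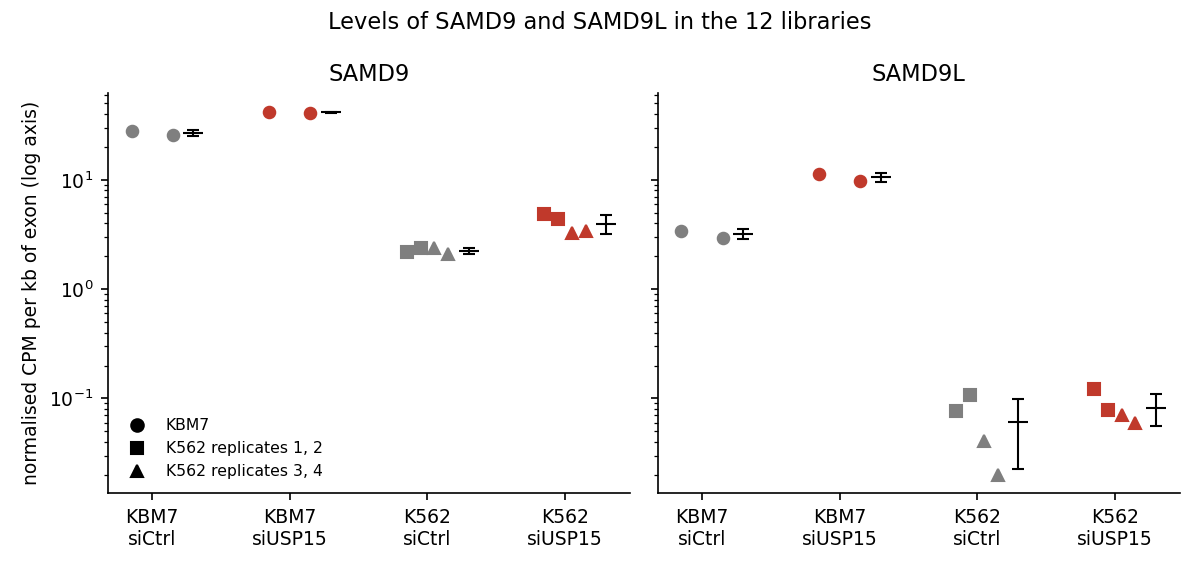
Normalised CPM per kb of exon on a log axis for SAMD9 and SAMD9L in each of the 12 libraries. Points are libraries (grey siCtrl, red siUSP15, shape for the library set) and bars are the mean ± SD of the group. SAMD9 lies between 2.08 and 41.8 and SAMD9L between 0.0199 and 11.2, and the siCtrl and siUSP15 libraries overlap only for SAMD9L in K562.

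Per kb of exon, the order of the group means was the same for both genes. SAMD9 stood at 41.3 ± 0.693 CPM per kb in KBM7 with siUSP15, 26.8 ± 1.73 in KBM7 with siCtrl (SD, n = 2 each), 3.97 ± 0.771 in K562 with siUSP15 and 2.25 ± 0.139 in K562 with siCtrl (SD, n = 4 each). SAMD9L stood at 10.54 ± 0.996 and 3.19 ± 0.326 CPM per kb in KBM7 with siUSP15 and siCtrl, and at 0.0826 ± 0.0272 and 0.0610 ± 0.0385 in K562. Of the neighbours in these orders, only the last 2 groups of SAMD9L overlapped. The response of SAMD9L on the log2 scale was larger in KBM7 than in K562 by 1.16 (SE 0.363), while that of SAMD9 was smaller in KBM7 by 0.16, with a difference of -0.16 (SE 0.0779). These differences are given without a test.

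Without knockdown, the 2 lines were far apart in both genes. With siCtrl, SAMD9 was 11.96-fold higher in KBM7 than in K562, a log2 difference in level of 3.58 (SE 0.0461, adjusted p = 3.37e-38 by edgeR, 2 against 4 libraries). SAMD9L was 60.2-fold higher, a log2 difference of 5.91 (SE 0.139, adjusted p = 4.88e-30 by edgeR). All KBM7 libraries exceeded all K562 libraries for both genes, but the share of all genes with such a separation was not counted. Of the 15375 genes compared in this way 87.7% passed the test, so passing it is the rule here, and 10.54% and 5.94% of genes differed further in this direction than SAMD9 and SAMD9L. The cell line cannot be told apart from the culture medium, which the paper gives as IMDM for KBM7 and RPMI for K562. Nor can it be told apart from the facility number, which differs between the KBM7 and the K562 libraries.

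The K562 responses were also taken set by set. In replicates 1 and 2 SAMD9 went from a mean of 15.5 CPM with siCtrl to 31.6 CPM with siUSP15, a log2 fold change of 0.99 (SE 0.0854). In replicates 3 and 4 it went from 15.2 to 22.8 CPM, a log2 fold change of 0.60 (SE 0.0901). SAMD9 was thus higher with siUSP15 in each set, with the larger change in the set where less USP15 was left, 46.7% of control in replicates 1 and 2 against 57.0% in replicates 3 and 4. The part of the remaining USP15 in this was not tested.

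For SAMD9L the sets ran the other way. Its log2 fold change was 0.02 (SE 0.342) in replicates 1 and 2, from 34 to 49 reads in unequally deep libraries, and 1.12 (SE 0.490) in replicates 3 and 4, from 12 to 26 reads. The 12 siCtrl reads have an exact Poisson interval of 6.20 to 21.0 at 95%, for counting error only, so this change rests on very few molecules. In KBM7, with 53.4% of USP15 left, the SAMD9L counts were 1436 with siCtrl and 4705 with siUSP15.

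The fitted level of both genes differed between the K562 sets, with siRNA as a term. SAMD9 was lower in replicates 3 and 4 by 0.27 on the log2 scale (difference -0.27, SE 0.0876, adjusted p = 0.0204 by edgeR). This lay in the siUSP15 libraries, with means of 31.6 and 22.8 CPM, as the siCtrl means were 15.5 and 15.2 CPM. The p-value of SAMD9 thus reflects its unequal change with siUSP15, on which the choice of the pair drew, and is not independent of that choice. SAMD9L was lower there as well (log2 difference -0.94, SE 0.315, adjusted p = 0.0232 by edgeR), with siCtrl means of 0.732 and 0.242 CPM. As the sets were inferred from these same libraries, these p-values are not independent of the split. Of all genes 56.3% differed between the sets, and mitochondrial reads made up 4.83% to 5.43% of counts in replicates 1 and 2 and 3.20% to 3.27% in replicates 3 and 4. Neither call survived the loss of some single libraries: for SAMD9 the adjusted p by edgeR was 0.0889, 0.0915 and 0.0614 without siUSP15 replicate 1, 3 or 4, and for SAMD9L it was 0.0758, 0.0676 and 0.0660 without siCtrl replicate 2 or 4 or siUSP15 replicate 1.

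The balance within the pair needs no scaling between libraries. SAMD9L made up 12.5% and 11.9% of the summed counts of the pair in the KBM7 siCtrl libraries, and 23.9% and 21.9% in the KBM7 siUSP15 libraries. The groups did not overlap, and as this is the contrast that chose the pair it is a description. Per kb, SAMD9 stood at 8.18 and 8.62 times the level of SAMD9L with siCtrl and at 3.72 and 4.15 times with siUSP15.

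In K562 SAMD9L took 3.91%, 5.04%, 1.97% and 1.11% of the pair with siCtrl and 2.83%, 2.06%, 2.45% and 2.01% with siUSP15. Over both sets the siUSP15 values lay within the range of the siCtrl values, but within each set they moved, in opposite directions. They fell from 3.91% and 5.04% to 2.83% and 2.06% in replicates 1 and 2. In replicates 3 and 4 they rose from 1.97% and 1.11% to 2.45% and 2.01%. Both moves rest on 4 to 26 SAMD9L reads per library and are a description. The log2 ratio of SAMD9L to SAMD9 with siCtrl was -2.85 ± 0.0541 in KBM7 (SD, n = 2) and -5.24 ± 1.02 in K562 (SD, n = 4), a difference of 2.40. Every KBM7 library had the higher ratio, but the 2-sided exact permutation p of 0.133 is the smallest that 15 arrangements can give. Between the K562 sets the log2 ratio was -4.88 ± 0.580 in replicates 1 and 2 and -5.76 ± 0.504 in replicates 3 and 4 (SD, n = 4 each, siCtrl and siUSP15 together). The 2-sided exact permutation p was 0.0571, where 0.0286 is the smallest possible. The arrangements took no account of the siRNA, so the SD and p mix its effect with the spread between libraries. These were 2 tests of 1 family, and neither passes 0.05 before any adjustment.

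Genes known to respond to interferon, the pathway through which the pair is best known, were compared with it as a list of 58 that excludes the pair. In KBM7 56 of 58 were higher with siUSP15, 0 were lower, and the median log2 fold change was 0.72, against 0.00070 over all genes. XAF1, an inhibitor of the apoptosis inhibitor XIAP, changed by 2.09 on the log2 scale (SE 0.0914), IFI44L by 1.57 (SE 0.0573), and the 2-5A synthetases OAS1 and OAS3 by 1.34 (SE 0.0517) and 1.16 (SE 0.0467). SAMD9 was among the smaller changes, with 40 of the 58 genes above its 0.63, whereas only 6 of the 58 were above the 1.72 of SAMD9L. Of the list 96.6% was thus called higher, where the shares over all genes in KBM7 were 13.2% higher and 15.8% lower. As this list, like the others, was chosen with earlier results of these data known, its shares are a description.

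In K562 the same list had 38 genes tested, of which 6 were higher, 3 were lower and the median was 0.13. These are 15.8% and 7.89% of the tested list, where the shares over all genes were 6.88% higher and 8.9% lower. ZNFX1, an antiviral helicase, changed by 0.28 (SE 0.0399), DTX3L, a ubiquitin ligase, by 0.34 (SE 0.0489) and SP110, a nuclear body protein, by 0.39 (SE 0.0968), all higher, and CMPK2, a mitochondrial nucleotide kinase, was lower at -0.26 (SE 0.0626). The 0.80 of SAMD9 was exceeded by 1 of the 38 genes, PSMB9, an immunoproteasome subunit named after its value of 1.03 was seen, and the 0.40 of SAMD9L by 3. SAMD9 therefore stood near the top of the 38 genes tested in K562 and in the lower part of the 58 tested in KBM7. Its rank is a description, and the ranks cannot be set against each other, as they are over different genes. XAF1, IFI44L and OAS1, for example, lay above SAMD9 in KBM7 and were not tested in K562. These K562 calls rest on the set term: with the replicate number as a block 2 of the 38 were higher, and with no set or block edgeR called 0 genes of 13731 (1447 at an unadjusted p under 0.05), limma-voom 0 and DESeq2 323.

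Genes upstream of such a response, the interferon receptors, kinases, factors and inhibitors, moved in both directions. In KBM7 8 of 19 entries were higher and 5 lower. STAT2 stood at 0.65 (SE 0.0511) and IRF1 at 0.62 (SE 0.0532) on the log2 scale, both transcription factors of the pathway, and its feedback inhibitor SOCS3 at -1.40 (SE 0.0855). The calls make up 42.1% and 26.3% of these entries, against 13.2% and 15.8% of all genes in KBM7. IRF9 is counted more than once, as separate Ensembl genes bear this name. Its entries stood at 0.53 (SE 0.169, called higher) and 0.28 (SE 0.123, adjusted p = 0.109 by edgeR) in KBM7, and neither passed in K562. In K562 0 of 17 entries were higher, where 6.88% of all genes were. The 2 (11.8%) that were lower, near the 8.9% lower over all genes, were SOCS3 at -0.57 (SE 0.132) and the receptor chain IFNAR2 at -0.33 (SE 0.101). In a direct test of KBM7 against K562 responses over 15833 genes, of which 23.2% passed, STAT2 differed by 0.82 (SE 0.0732, adjusted p = 9.51e-09 by edgeR) and IRF1 by 0.79 (SE 0.0898, adjusted p = 4.99e-07 by edgeR). Both had been named for a low p with siUSP15 in KBM7, which favours such a difference.

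The list of other antiviral inhibitors of translation or growth, a role shared with SAMD9 and SAMD9L, held 20 genes. In KBM7 16 were higher and 1 lower, with OAS2 at 1.76 (SE 0.0777) and IFIT3 at 0.90 (SE 0.0443) on the log2 scale. These are 80.0% and 5.0% of the list, against 13.2% and 15.8% of all genes. In K562 9 were tested, 3 (33.3%) were higher and 1 (11.1%) was lower, against 6.88% and 8.9% of all genes. SAMHD1, a dNTP hydrolase with a SAM domain, changed by 1.02 (SE 0.0632) in KBM7 and by 0.16 (SE 0.0430) in K562, and the kinase EIF2AK2 changed by 0.13 (SE 0.0381) in K562. ISG20, an RNA exonuclease, was lower in K562 at -1.15 (SE 0.313), and C19orf66 was higher at 0.33 (SE 0.0731).

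Of 14 other genes named for a SAM domain, 11 were tested in KBM7, with 1 higher and 4 lower, and 7 in K562, with 2 higher and 1 lower. The KBM7 shares were 9.09% and 36.4%, against 13.2% and 15.8% of all genes, and the K562 shares 28.6% and 14.3%, against 6.88% and 8.9%. SAMD14 was lower in KBM7 at -1.01 (SE 0.1001), SAMD4B, a translational repressor, was lower in KBM7 at -0.16 (SE 0.0459) and higher in K562 at 0.29 (SE 0.0407), and SAMD8 was lower in both, at -0.24 (SE 0.0720) and -0.22 (SE 0.0634). Of 9 tested genes of chromosome 7 that, like the pair, are tied to myeloid neoplasia, 0 were higher and 5 (55.6%) lower in KBM7, against 15.8% of all genes lower, and 0 passed in either direction in K562 with edgeR (0 at an unadjusted p under 0.05), where their median log2 fold change was 0.03.

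Genes around the pair were counted on either side of it. Within 2000 kb, 20 genes were tested in KBM7, of which 1 was higher and 2 lower, and 20 in K562, of which 0 were higher and 5 lower. The shares lower were 10.0% in KBM7, where 15.8% of all genes were lower, and 25% in K562, where 8.9% were. SAMD9 and SAMD9L lie 12.03 kb apart, and of the closest genes CDK6, a cell cycle kinase 262.9 kb away, stood at 0.13 (SE 0.0489, adjusted p = 0.0615 by edgeR) in KBM7 and at 0.09 (SE 0.0449, adjusted p = 0.176 by edgeR) in K562. CCDC132, part of an endosomal tethering complex and 84.0 kb away, stood at 0.03 (SE 0.0661, adjusted p = 0.771 by edgeR) in KBM7 and was lower in K562 at -0.23 (SE 0.0411). The non-coding AC002454.1, tested in K562 only, stood at 0.51 (SE 0.263, adjusted p = 0.197 by edgeR).

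The nearest tested gene moved against SAMD9 in K562. HEPACAM2, an adhesion protein of the immunoglobulin superfamily whose gene lies 40.2 kb from the pair, was counted at 3.95, 4.31, 1.41 and 1.81 CPM with siCtrl and at 0.786, 0.995, 0.658 and 0.714 CPM with siUSP15. Every siUSP15 library lay below every siCtrl library, and the log2 fold change was -1.85 (SE 0.206, adjusted p = 0.00104 by edgeR). In KBM7 it had 0 to 3 reads per library and was not tested. Further away, and named after their values were seen, PEG10 was lower in both at -0.25 (SE 0.0684) and -1.18 (SE 0.225), CYP51A1 was lower in KBM7 at -0.77 (SE 0.153) and GNG11 lower in K562 at -1.07 (SE 0.301). The K562 values of PEG10 and GNG11 rest on few reads. PEG10 had 19 to 24 reads per library with siCtrl and 7 to 19 with siUSP15, and GNG11 had 3 to 36 and 4 to 22.

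**Figure D2:**
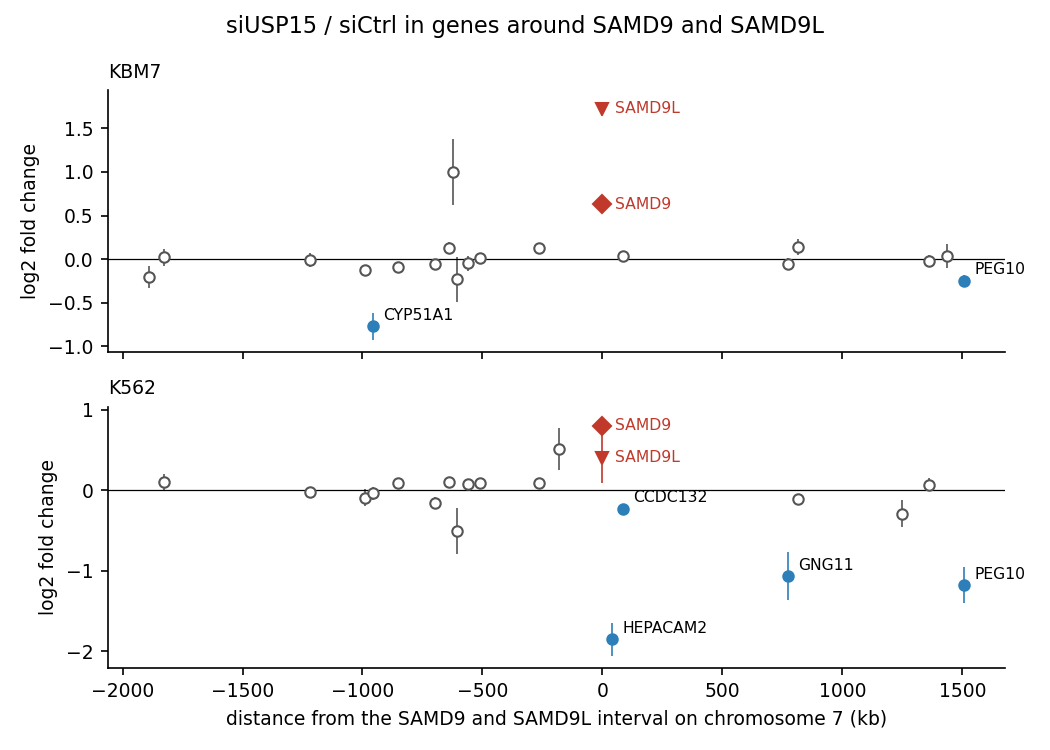
Log2 fold change of siUSP15 against siCtrl with its standard error for genes tested within 2000 kb of the SAMD9 and SAMD9L interval, with 1 gene not plotted, by distance from it in kb, with KBM7 above and K562 below. Filled points passed an adjusted p under 0.05 in edgeR, open points did not, and red symbols are SAMD9 and SAMD9L, which were not tested. HEPACAM2, 40.2 kb away, stands at -1.85 in K562 and is not plotted in KBM7.

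The genes most like each member over the 12 libraries were found by Pearson's r of log2 CPM after the mean of each library set was removed, over 10237 genes with at least 1 log2 CPM on average in each line. As these libraries share the siRNA contrast that chose the pair, r is a description. For SAMD9 the closest were FNDC3A (r = 0.98), the RNA-binding protein FAM120A (0.98), the collagen lysyl hydroxylase PLOD1 (0.97), the centriolar protein CEP164 (0.97) and the disulfide isomerase P4HB (0.97). None of them is on the interferon list, and their log2 fold changes lay between 0.18 and 0.25 in KBM7 and between 0.20 and 0.36 in K562, higher in both lines for all 5, as SAMD9 was. As the 5 were picked by r over these same libraries, this follows from the choice and is no separate result. Of all genes 13.2% were called higher in KBM7 and 6.88% in K562.

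For SAMD9L the closest were the imprinted non-coding RNA H19 (r = 0.93), SLC16A1-AS1 (0.93), the intermediate filament VIM (0.92), the antigen-presenting molecule MR1 (0.92) and the ubiquitin ligase UHRF2 (0.92). Of these H19, VIM and MR1 were higher in KBM7, at 2.16 (SE 0.245), 0.44 (SE 0.0538) and 0.43 (SE 0.0753), and VIM was also higher in K562 at 0.14 (SE 0.0419). These calls too are tied to the choice by r and are no separate result. The members correlated with each other at r = 0.66. Over 38 genes of the interferon list the median r was 0.57 with SAMD9 and 0.79 with SAMD9L, and over all genes it was 0.03 and -0.04. SAMD9L itself lay under the level asked of the compared genes in K562, at 4 to 26 reads per library. Its r therefore carries counting noise from those libraries.

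**Figure D3:**
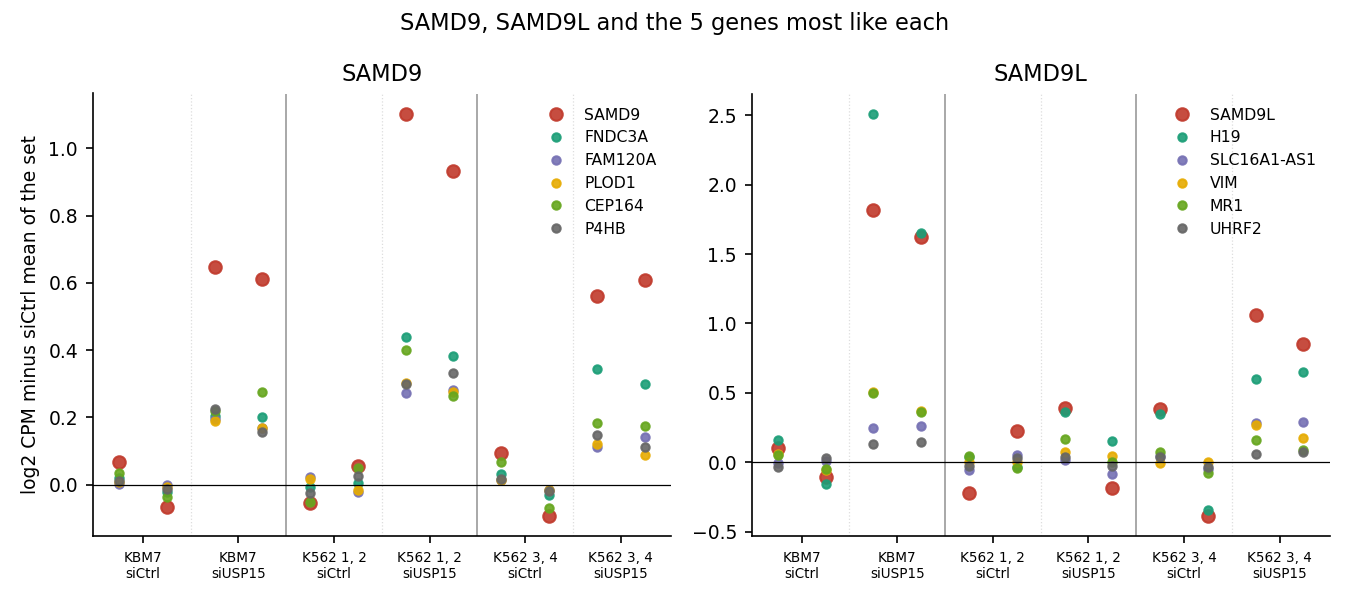
Log2 CPM in each of the 12 libraries minus the siCtrl mean of its library set, for SAMD9 (left) and SAMD9L (right) and the 5 genes most like each. Each column of points is 1 library, in pairs by line, K562 replicate set and siRNA. SAMD9 and its 5 genes lie above 0 in all 6 siUSP15 libraries, while SAMD9L is near 0 with siUSP15 in K562 replicates 1 and 2.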

How the data were processed

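The authors deposited, for each cell line, raw counts per Ensembl gene and library, made with TopHat2 2.1.0, hg38 and HTSeq per the submitters' processing notes (the paper names another counter). Their log2 CPM, log2 fold changes and adjusted p-values, held in the same tables, were not used. The K562 table is named as batch corrected, but its counts are whole numbers, and no source names the batches.

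After filterByExpr and TMM scaling, each gene was tested 2-sided by quasi-likelihood in edgeR (version 4.0.16, R 4.3.3), at a Benjamini-Hochberg adjusted p under 0.05 over 14980 genes in KBM7 and 13731 in K562, with the set as a term in K562. Lines were compared over genes in both tables. Ratios were tested by exact permutation with scipy 1.17.1. Log2 CPM used a prior count of 2. Alternatives used limma 3.58.1 and DESeq2 1.42.0. On simulated counts edgeR recovered 71% of genes changed by 0.5 log2 in KBM7 and 81.6% in K562. False calls were 11 of 160 in KBM7, 15 of 190 in K562, 18 of 207 between the K562 sets and 9 of 188 between the lines.

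Pairing by replicate number was checked through the correlation of the libraries' departures from group means. In K562 it was 0.55 to 0.695, above the limit of 0.1, but 0.00697 and 0.0865 once set means were removed, so that the pairing came from the sets. In KBM7 the value was 0.000978. Besides the pair and USP15, genes were named as the 5 most like each member, those tested within 500 kb, and the 4 of lowest p per list and line, of which some are not reported here. Members, lists and rules were chosen with earlier results of these data known.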

Additional observations from a re-analysis of the deposited data

Results flagged for a closer look

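The response to siUSP15 was compared between the lines for 27 genes beside the pair. They came from the interferon and antiviral lists and the genes around the pair, with USP15, and the other named genes were not looked up. IFI44L, OAS1 and OAS2 were among the 27 but gave no value. Most of the 27 had been named for a low p with siUSP15 in a line or after their values were seen, which favours a difference. Those that differed by edgeR's test of the difference are given here as KBM7 minus K562 on the log2 scale. Of all genes 23.2% passed, a share that the number given here cannot be set against. The response was higher in KBM7 for ISG20 (1.70), OAS3 (0.98), SAMHD1 (0.86), STAT2 (0.82), IRF1 (0.79), IFIT3 (0.63), C19orf66 (0.31), SP110 (0.31), CMPK2 (0.29), DTX3L (0.25) and EIF2AK2 (0.25). The inhibitor SOCS3 differed by -0.94. Around the pair on chromosome 7, PEG10, with 7 to 24 reads per library in K562, differed by 0.99, CCDC132 by 0.26 and CYP51A1 by -0.74. No library of SAMD9, SAMD9L or USP15 stood far from its group of 4.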

How the results depend on the processing

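SAMD9 and SAMD9L kept the direction of their change with siUSP15 in both lines under all alternatives run, including each library left out in turn, where the KBM7 values lay between 0.58 and 0.69 for SAMD9 and between 1.62 and 1.82 for SAMD9L, and the K562 values between 0.73 and 0.88 and between 0.22 and 0.70. The differences between the lines also kept their call. Without single libraries the differences between the K562 sets ranged from -0.34 to -0.18 for SAMD9 and from -1.21 to -0.73 for SAMD9L and lost their call in 3 of 8 cases each. Gene counts moved more. Without single libraries, KBM7 had 990 to 2440 genes higher, 1224 to 2689 lower and 1 to 5 neighbours called (1 without siCtrl replicate 1, 5 without siUSP15 replicate 1), against 1971, 2374 and 3, and the counts were low without either siCtrl library. K562 had 201 to 1238 higher and 354 to 1401 lower, against 945 and 1222, with the low counts without replicates 1 or 2 of either group, and 2 to 6 interferon-stimulated genes higher, with 2 without siCtrl replicate 1 or 2 or siUSP15 replicate 1 or 3. DESeq2 called 1073 higher, 1479 lower and 1 neighbour in KBM7, and 3 neighbours in K562. No filter gave 1502 higher in K562. With the replicate block, K562 had 412 higher, 610 lower and 2 interferon-stimulated genes higher. Under the block K562 had 4 neighbours called in place of 5, and KBM7 had 1972 genes higher and 2358 lower, and SAMD9 stood at 0.80 in K562 and 0.63 in KBM7. Without a set term edgeR called 0 higher, 0 lower, 0 interferon-stimulated genes and 0 neighbours in K562 (1447 genes at an unadjusted p under 0.05). Added after seeing the data, limma-voom without the term also gave 0 of each, and DESeq2 gave 126, 197, 1 and 3. Neighbours called were 0 within 500 kb and 7 within 5000 kb in KBM7, and 2 within 500 kb in K562. At an adjusted p under 0.01, 2 interferon-stimulated genes were higher in K562. With siCtrl means removed, 3 of the 5 genes most like SAMD9L and all 5 of SAMD9 were shared, and r within the pair was 0.47. The causes were not tested. Where 1 library remained in a KBM7 group, its spread was taken from the other group. Depth limits SAMD9L in K562, with 4 to 26 reads per library.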
